A study of Chlorocebus sabaeus with 10 samples.

Results

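Mitochondrial fatty acid beta-oxidation in the liver was examined through 10 genes that encode its entry step and its core enzymes, CPT1A, CPT2, ACADVL, ACADM, ACADL, ACADS, HADHA, HADHB, HADH and ACAA2. The rule takes the genes by name and uses no measured value, although the list was drawn up with earlier results of these data known. Members are the transcripts whose gene symbol in the deposited count table equals one of these names. They are 10 of the 23352 gene symbols in that table of 28078 transcripts. Each of the 10 had 1 transcript, so no isoform had to be chosen, and all 10 were among the 7948 transcripts (7939 genes) with enough counts to be tested. The biopsies came from the livers of 10 female vervet monkeys (Chlorocebus sabaeus), an Old World primate, all of which had eaten chow before the study. For 6 weeks, 5 of the animals were then fed a high fructose (HFr) diet and 5 stayed on chow, with assignment balanced for age and body weight. The study still reported a higher mean age on HFr than on chow, a difference that did not reach significance. Polyadenylated RNA of the whole tissue was sequenced from each animal as 1 library, so the p-values below measure the spread between these animals. The comparison of the diets asks how hepatic expression differed after fructose feeding.

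Beta-oxidation shortens fatty acids in the mitochondrial matrix by removing acetyl-CoA units. Long-chain acyl groups enter the matrix as carnitine esters, and each turn of the cycle then runs through a dehydrogenation, a hydration, a further dehydrogenation and a thiolytic cleavage, with enzymes of different chain-length preference taking over as the acyl chain shortens. In the liver the pathway is known for supplying energy and ketone bodies during fasting, and its entry step is inhibited by malonyl-CoA, the first committed intermediate of fatty acid synthesis.

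The libraries held 2977282 to 4992505 estimated counts each. Transcripts of the mitochondrial genome took 41.8% to 67.8% of them on HFr and 34.7% to 73.6% on chow (two-sided exact permutation test of the means, p = 0.992, n = 5 per diet), which left 864571 to 2657103 counts on nuclear transcripts. The 10 enzymes together had 3093 to 9560 counts per HFr animal and 2755 to 7853 per chow animal, and the lowest count of any of them in any animal was 32, for ACADL. Levels below are normalized counts, that is, estimated counts divided by a library size (CPM) that was scaled with the TMM method (trimmed mean of M values). They are not divided by transcript length, so they are compared between animals and not between genes. In biopsies of whole tissue, fewer cells of a type and less RNA per cell cannot be told apart. The labelled tissue was checked against hepatocyte markers such as ALB, APOA1 and FGB, of which 7 of 8 listed were found and tested. Their summed level was 46305 to 71772 normalized counts on HFr and 37282 to 75565 on chow. From edgeR, 0 of the 7 had an unadjusted p under 0.05, beside 4.29% of all tested transcripts. The log2 fold change was above 0 for 6 of the 7, beside 49.8% of all tested transcripts, and -0.18 for ALB. It was largest for TF, with 0.37 (edgeR, unadjusted p = 0.155, and two-sided exact permutation test, p = 0.0397).

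All 10 enzymes had a log2 fold change above 0 between HFr and chow in edgeR's quasi-likelihood test, against 49.8% of all tested transcripts. The enzymes were measured in the same animals and 42 of their 45 pairs were positively correlated, so the 10 directions are not independent of each other. Their median log2 fold change was 0.37, beside -0.00075 over all tested transcripts, and single values ran from 0.01 for ACADL to 0.67 for HADHA. Of the 10, 1 had an unadjusted p under 0.05, which was HADHA, where 4.29% of all tested transcripts passed this threshold in either direction and 2.06% passed it with a higher level on HFr. After Benjamini-Hochberg adjustment over all 7948 transcripts, 0 of the 10 passed 0.05, as did 0% of all tested transcripts, and the adjusted p of every enzyme was 0.9996. Over the 25 alternatives tried, which include DESeq2 and limma, the lowest adjusted p of any enzyme was 0.838. For 0 of the 10 did the levels of the diets fail to overlap, against 0.541% of all tested transcripts without overlap and 0.214% with every HFr animal above every chow animal. By role, the median log2 fold change was 0.49 for the 2 carnitine entry enzymes and 0.26 for the 4 acyl-CoA dehydrogenases. It was 0.47 for the 2 subunits of the trifunctional protein and 0.31 for the 2 soluble matrix enzymes. With so few genes per role, these medians give no order of the roles.

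**Figure D1:**
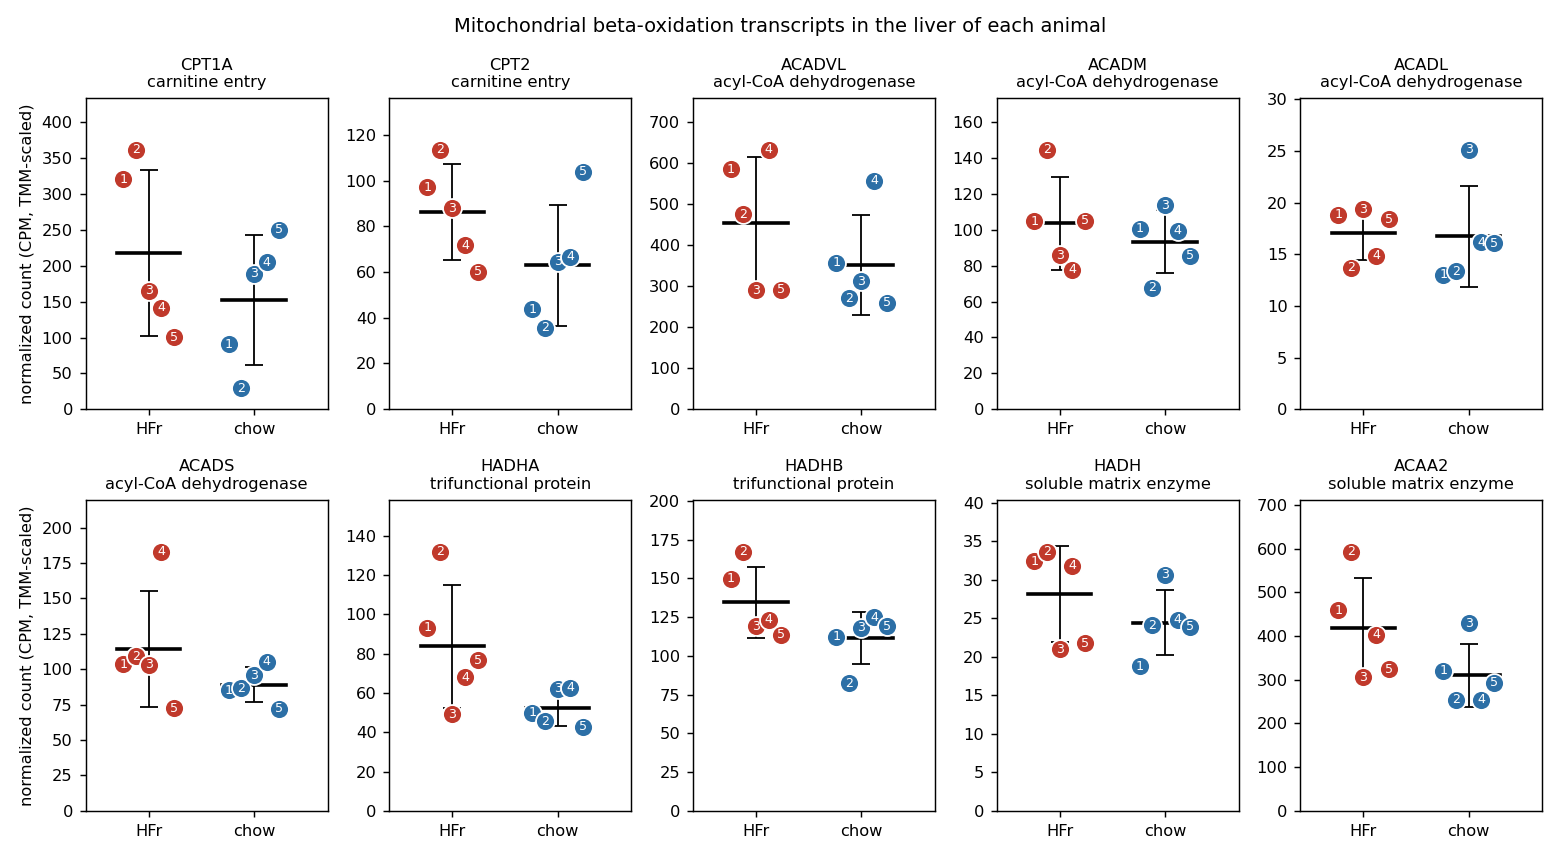
Normalized count (CPM on the TMM-scaled library size, linear axis from 0) of each of the 10 transcripts on each diet. Numbered points are single animals, the horizontal line is the mean and the error bar is 1 SD (n = 5 per diet). The diets overlap in every panel, and for HADHA 4 HFr animals lie above all chow animals.

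CPT1A encodes the liver form of carnitine palmitoyltransferase 1, which loads long-chain acyl groups onto carnitine at the outer mitochondrial membrane and is the step that malonyl-CoA inhibits. Its gene lies on chromosome 1 of ChlSab1.1, from 5730853 to 5784337 on the plus strand. In HFr animals 1 to 5 it had 321, 362, 165, 141 and 101 normalized counts, and in chow animals 1 to 5 it had 90.5, 29.1, 189, 205 and 250. HFr animals 1 and 2 stood above all others and chow animal 2 below all others, while the remaining animals of both diets were interleaved. The mean was 218 ± 116 on HFr and 153 ± 90.3 on chow (SD, n = 5 each), and the fitted fold of HFr over chow was 1.43 (95% interval 0.703 to 2.92; log2 fold change 0.52 ± 0.48 SE; edgeR, unadjusted p = 0.297). CPT1A was by far the most variable of the 10 enzymes, with a 12.4-fold range over the animals. Its within-diet SD was 1.05 on the log2 scale, where the median tested transcript had 0.36 and 1.52% of tested transcripts had a larger one. Without chow animal 2 the log2 fold change was 0.25, and without chow animal 5 it was 0.76.

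CPT2 encodes the inner membrane enzyme that returns the acyl group from carnitine to CoA, and its gene lies on chromosome 20 from 79706584 to 79727689 on the minus strand. It had 97.2, 113, 87.9, 71.8 and 60.1 normalized counts in HFr animals 1 to 5, and 43.6, 35.7, 64.6, 66.7 and 104 in chow animals 1 to 5. Of the chow animals, 4 had less than HFr animal 4, whereas chow animal 5 was exceeded by HFr animal 2 alone. The mean was 86.1 ± 21.0 on HFr and 62.9 ± 26.5 on chow (SD, n = 5 each), and the fitted fold was 1.38 (95% interval 0.919 to 2.06; log2 fold change 0.46 ± 0.27 SE; edgeR, unadjusted p = 0.112). Without chow animal 5 the log2 fold change of CPT2 was 0.71 with an unadjusted p of 0.0134.

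The acyl-CoA dehydrogenases catalyze the first oxidation of each turn. ACADVL, the very long-chain enzyme of the inner membrane, is encoded on chromosome 16 from 6593287 to 6598979 on the plus strand. It had 586, 475, 291, 633 and 292 normalized counts in HFr animals 1 to 5 and 358, 271, 312, 557 and 260 in chow animals 1 to 5. High animals occurred on both diets, namely HFr animals 1 and 4 and chow animal 4, and chow animals 2 and 5 lay below all HFr animals. With means of 455 ± 160 and 351 ± 121 (SD, n = 5 each), the fitted fold was 1.30 (95% interval 0.851 to 1.97; log2 fold change 0.37 ± 0.28 SE; edgeR, unadjusted p = 0.207). Without chow animal 4 the log2 fold change of ACADVL was 0.60 with an unadjusted p of 0.0471.

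ACADM, the medium-chain dehydrogenase, is encoded on chromosome 20 from 57428472 to 57468359 on the minus strand. It had 105, 145, 85.9, 77.8 and 105 normalized counts in HFr animals 1 to 5 and 101, 67.7, 114, 99.6 and 85.5 in chow animals 1 to 5. HFr animal 2 was the highest and chow animal 2 the lowest, and the other animals were mixed. The fitted fold was 1.11 (95% interval 0.819 to 1.50; log2 fold change 0.15 ± 0.20 SE; edgeR, unadjusted p = 0.476), and it came to a log2 fold change of -0.00026 without HFr animal 2.

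ACADL, the long-chain dehydrogenase, lies on chromosome 10 from 95887465 to 95925578 on the minus strand. It had 18.8, 13.7, 19.4, 14.9 and 18.4 normalized counts in HFr animals 1 to 5 and 13.0, 13.4, 25.1, 16.2 and 16.1 in chow animals 1 to 5. Chow animal 3 stood alone at the top, and the means of 17.0 ± 2.57 and 16.8 ± 4.91 (SD, n = 5 each) nearly coincided. Relative to chow, the fitted fold was 1.01 (95% interval 0.734 to 1.38; log2 fold change 0.01 ± 0.21 SE; edgeR, unadjusted p = 0.969), with no stable sign when single animals were left out.

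ACADS, the short-chain dehydrogenase, lies on chromosome 11 from 116083276 to 116096607 on the plus strand. It had 104, 109, 103, 183 and 72.4 normalized counts in HFr animals 1 to 5 and 85.0, 86.7, 95.7, 105 and 72.2 in chow animals 1 to 5. HFr animal 4 was far above the others, and the lowest animal of each diet had nearly the same level. The fitted fold was 1.29 (95% interval 0.918 to 1.80; log2 fold change 0.36 ± 0.23 SE; edgeR, unadjusted p = 0.132). The log2 fold change of ACADS was 0.12 without HFr animal 4, and 0.49 with an unadjusted p of 0.0403 without HFr animal 5.

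HADHA and HADHB encode the alpha and beta subunits of the mitochondrial trifunctional protein, which carries out the steps after the first dehydrogenation of the cycle for long-chain substrates. HADHA, the subunit with enoyl-CoA hydratase and long-chain 3-hydroxyacyl-CoA dehydrogenase activity, had the largest fold change of the 10 enzymes. Its gene lies on chromosome 14 from 81411648 to 81472257 on the plus strand. HADHA had 93.1, 132, 49.2, 68.0 and 76.6 normalized counts in HFr animals 1 to 5, and 49.8, 45.6, 62.0, 62.7 and 42.7 in chow animals 1 to 5. HFr animals 1, 2, 4 and 5 were above all 5 chow animals, and HFr animal 3 lay within the chow range, just under chow animal 1. The mean was 83.7 ± 31.2 on HFr and 52.6 ± 9.27 on chow (SD, n = 5 each). Relative to chow, the fitted fold was 1.60 (95% interval 1.12 to 2.28; log2 fold change 0.67 ± 0.24 SE; edgeR, unadjusted p = 0.0140, adjusted p = 0.9996), and a two-sided exact permutation test of the log2 levels gave p = 0.0476. By its unadjusted p, HADHA ranked 97 among the 7948 tested transcripts. HFr animal 2 carried part of this difference, since without it the log2 fold change was 0.45 and the unadjusted p 0.0533.

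HADHB, the subunit with 3-ketoacyl-CoA thiolase activity, lies next to HADHA on chromosome 14 from 81361612 to 81411432 on the minus strand. The 2 genes are arranged head to head, with 215 bases between their annotated bounds, and do not overlap. HADHB had 150, 167, 119, 123 and 114 normalized counts in HFr animals 1 to 5, and 112, 82.3, 118, 125 and 119 in chow animals 1 to 5. HFr animals 1 and 2 were above the rest and chow animal 2 below the rest, while the other 7 animals lay close together. The mean was 135 ± 23.0 on HFr and 111 ± 16.8 on chow (SD, n = 5 each), and the fitted fold was 1.21 (95% interval 0.925 to 1.58; log2 fold change 0.27 ± 0.18 SE; edgeR, unadjusted p = 0.150).

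Since both subunits are built into one complex, the ratio of their levels was compared between the diets, a comparison chosen after the values were seen. The ratio of HADHA to HADHB normalized counts was 0.622, 0.788, 0.414, 0.551 and 0.674 in HFr animals 1 to 5. It was 0.443, 0.553, 0.524, 0.502 and 0.359 in chow animals 1 to 5. HFr animals 1, 2 and 5 exceeded all chow animals, whereas HFr animal 3 was below all chow animals except animal 5. The means were 0.610 ± 0.140 on HFr and 0.476 ± 0.0770 on chow (SD, n = 5 each), and the difference of the log2 ratios was 0.34 (two-sided exact permutation test, p = 0.127). A different change of the 2 subunits was thus not shown.

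HADH and ACAA2 encode soluble matrix enzymes that complete the cycle for shorter chains. HADH, the medium- and short-chain 3-hydroxyacyl-CoA dehydrogenase on chromosome 7 from 55919623 to 55964857 on the plus strand, had 32.4, 33.6, 21.0, 31.8 and 21.8 normalized counts in HFr animals 1 to 5 and 18.7, 24.1, 30.6, 24.8 and 23.9 in chow animals 1 to 5. HFr animals 1, 2 and 4 were above all chow animals and HFr animals 3 and 5 were below 4 of them. The fitted fold was 1.15 (95% interval 0.864 to 1.53; log2 fold change 0.20 ± 0.19 SE; edgeR, unadjusted p = 0.312).

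ACAA2, the mitochondrial 3-ketoacyl-CoA thiolase on chromosome 18 from 31152074 to 31181706 on the plus strand, had 459, 593, 306, 403 and 325 normalized counts in HFr animals 1 to 5. In chow animals 1 to 5 it had 321, 255, 429, 255 and 293. HFr animals 1 and 2 exceeded all chow animals, and chow animals 2, 4 and 5 were below all HFr animals. The mean was 417 ± 116 on HFr and 311 ± 72.0 on chow (SD, n = 5 each), with a fitted fold of 1.34 (95% interval 0.956 to 1.89; log2 fold change 0.43 ± 0.23 SE; edgeR, unadjusted p = 0.0839). Of the enzymes after HADHA, ACAA2 had the smallest p, and without chow animal 3 its log2 fold change was 0.57 with an unadjusted p of 0.0279.

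To compare the animals, each transcript was centred on its own mean over the 10 animals on the log2 scale (pseudocount 1), and the deviations of the 10 enzymes were averaged in each animal. The average deviation was 0.40, 0.53, -0.07, 0.17 and -0.16 in HFr animals 1 to 5 and -0.30, -0.64, 0.11, 0.05 and -0.09 in chow animals 1 to 5. HFr animals 1 and 2 were thus the highest and chow animals 2 and 1 the lowest, whereas HFr animals 3 and 5 were below chow animals 3 and 4. HFr animal 2 had the highest level of all 10 animals for 7 of the enzymes, HFr animal 4 for 2 and chow animal 3 for 1. The lowest level was found in chow animal 2 for 5 enzymes, in chow animal 5 for 3 and in chow animal 1 for 2. In HFr animal 1 all 10 enzymes were above their own means, and in chow animal 2 all 10 were below. When single animals were omitted, the median log2 fold change of the 10 enzymes ranged from 0.26 to 0.49, and it was 0.26 without HFr animal 2 or HFr animal 4 and 0.27 without chow animal 2.

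**Figure D2:**
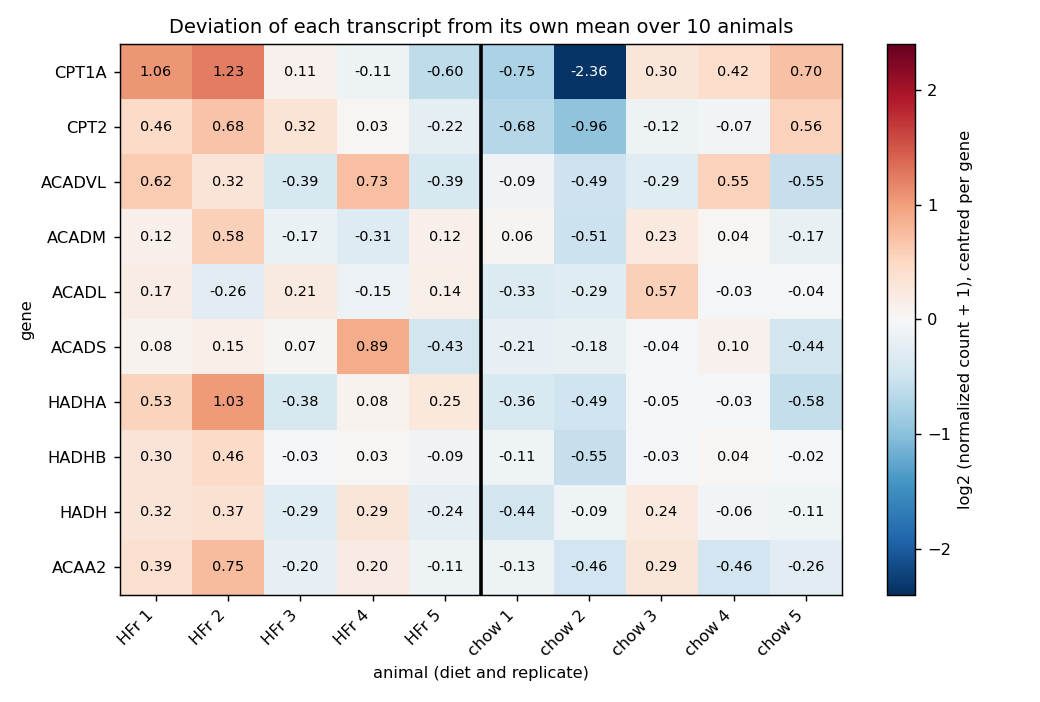
Deviation of each transcript (vertical axis) from its own mean over the 10 animals, in log2 of the normalized count plus 1, for each animal (horizontal axis), with HFr animals left of the black line. Red is above and blue below the mean of the gene. The HFr 1 column is above the mean for all 10 genes and the chow 2 column below it for all 10, with the extreme value of -2.36 for CPT1A in chow animal 2.

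Levels of the enzymes were correlated over the 10 animals for all 45 pairs. The values of a pair come from the same libraries and share their normalization. The median Pearson r was 0.49, or 0.40 after the diet means were removed, with a range from -0.16 to 0.92, and 42 of the 45 pairs had an r above 0. After Benjamini-Hochberg adjustment over the 45 pairs, 7 passed 0.05 by Pearson's r and 3 by Spearman's rho (permutation test with 100000 resamples). The resamples ignored diet, so a difference between the diets that both genes share enters these p-values. With the diet means removed, r of the 7 pairs ran from 0.68 for HADHB and ACAA2 to 0.93 for CPT1A and HADHB, without a test. With 5 animals per diet, no correlation within a diet was computed.

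The 3 pairs that passed by both measures joined CPT1A, CPT2 and HADHB. CPT1A and CPT2 had r = 0.92 (permutation p = 0.00015, adjusted 0.0034) and rho = 0.89 (permutation p = 0.0011, adjusted 0.028), and r was 0.83 without HFr animal 2 and chow animal 2, the animals farthest from the CPT1A median. For CPT1A and HADHB r was 0.92 (permutation p = 4.0e-05, adjusted 0.0018) and rho 0.89 (permutation p = 0.0012, adjusted 0.028), with an r of 0.77 without the same animals. CPT2 and HADHB had r = 0.83 (permutation p = 0.0018, adjusted 0.023) and rho = 0.85 (permutation p = 0.0029, adjusted 0.044), which came to 0.58 without these animals. Chow animal 5 was the highest chow animal for CPT1A and CPT2 and the lowest of all animals for HADHA.

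By Pearson's r alone, 4 further pairs passed. HADHA and ACAA2 had r = 0.82 (permutation p = 0.0033, adjusted 0.030) and rho = 0.78 (permutation p = 0.011, adjusted 0.095), and HADHA and HADHB had r = 0.79 (permutation p = 0.0071, adjusted 0.048) and rho = 0.61 (permutation p = 0.066, adjusted 0.197). Without HFr animals 1 and 2 these values of r came to 0.47 and 0.41, so both relations rest largely on these animals. HADHB and ACAA2 had r = 0.78 (permutation p = 0.0074, adjusted 0.048) and rho = 0.52 (permutation p = 0.134, adjusted 0.294), with r = 0.49 without HFr animal 2 and chow animal 2. ACADVL and ACADS had r = 0.76 (permutation p = 0.0021, adjusted 0.023) and rho = 0.79 (permutation p = 0.0086, adjusted 0.095), and r was 0.67 without HFr animals 1 and 4. Of all 10 enzymes, HADHB was closest to the mean of the other 9 (r = 0.95 over 10 animals, given as a description) and ACADL farthest (r = 0.18).

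**Figure D3:**
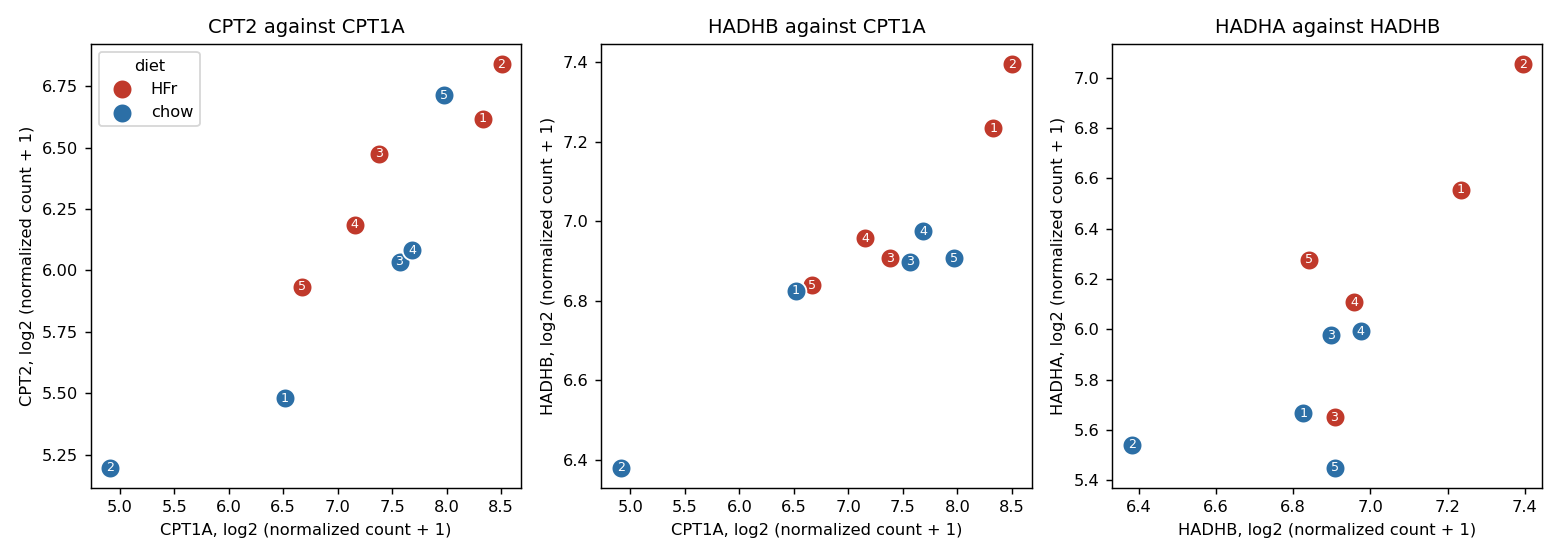
Levels of 3 pairs of enzymes as log2 of the normalized count plus 1, each numbered point being 1 animal (red HFr, blue chow, n = 10). CPT2 and HADHB follow CPT1A across both diets (r = 0.92 each), and HADHA follows HADHB mainly through HFr animals 1 and 2.

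The share of mitochondrial genome transcripts differed widely between libraries and was compared with each enzyme. Of the 10, 0 had an r with this share that passed 0.05, before or after adjustment. The values of r ran from -0.29 to 0.45 over the 10 animals, with a smallest permutation p of 0.187 (adjusted 0.702). Without HFr animal 2 and chow animal 2, the animals farthest from the median share, they ran from -0.60 for ACADM to 0.47 for CPT2. For ACADM r was -0.18 with all animals, so some of these values depend strongly on the 2 animals.

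The other genes of the pathway were taken from 7 lists with 38 genes, of which 29 were tested. Of these, 22 had a log2 fold change above 0 and 7 below, the median was 0.14, and 3 had an unadjusted p under 0.05, or 10.3% beside the 4.29% of all tested transcripts. After adjustment 0 passed in edgeR. SLC25A20 and ESRRA were among the 3. By list, 6 of 6 tested genes of carnitine supply and transport had a log2 fold change above 0 (median 0.22), beside 49.8% of all tested transcripts. So did 3 of 3 genes of electron transfer (median 0.37) and 4 of 4 tested transcriptional regulators (median 0.46). Of the 8 listed regulators only 4 were tested, and 1 of these had an unadjusted p under 0.05 in edgeR. Among the auxiliary matrix enzymes 3 of 6 were above 0 (median 0.04). In the propionyl-CoA branch that handles odd-chain fatty acids it was 1 of 4 (median -0.17). For the malonyl-CoA genes the median was 0.19 (2 of 2 above 0), and for ketone body metabolism it was 0.18 (3 of 4).

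SLC25A20 encodes the carnitine-acylcarnitine translocase, which stands between CPT1A and CPT2 in the inner membrane, and lies on chromosome 22 from 10261634 to 10300778. It had 51.2, 72.4, 58.1, 54.9 and 42.1 normalized counts in HFr animals 1 to 5 and 33.1, 34.2, 44.9, 52.0 and 38.6 in chow animals 1 to 5. All HFr animals were above the chow mean of 40.6, and HFr animals 1 and 5 lay within the chow range. Relative to chow, the fitted fold was 1.38 (95% interval 1.04 to 1.83; log2 fold change 0.46 ± 0.19 SE; edgeR, unadjusted p = 0.0277; two-sided exact permutation test, p = 0.0476). Without HFr animal 2 the log2 fold change of SLC25A20 was 0.35 with an unadjusted p of 0.0868, and without HFr animal 3 or chow animals 1, 2 or 5 the unadjusted p lay between 0.0547 and 0.0691.

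ESRRA encodes estrogen-related receptor alpha, a nuclear receptor of mitochondrial gene programs, on chromosome 1 from 9917436 to 9929450. It had 35.0, 45.3, 33.1, 42.7 and 39.2 normalized counts in HFr animals 1 to 5 and 29.2, 27.6, 32.1, 29.3 and 22.1 in chow animals 1 to 5. Every HFr animal was above every chow animal, by 33.1 in HFr animal 3 against 32.1 in chow animal 3 at the nearest. The fitted fold was 1.39 (95% interval 1.09 to 1.76; log2 fold change 0.47 ± 0.16 SE; edgeR, unadjusted p = 0.0103, adjusted p = 0.9996). Over all tested transcripts, 0.214% had every HFr animal above every chow animal. The two-sided exact permutation test gave p = 0.00794, the smallest value that 5 against 5 animals allow. Without overlap this value is fixed, so it restates the separation by which ESRRA could be named. The unadjusted p of edgeR stayed under 0.05 in all 10 fits with 1 animal left out, and was 0.198 with library size only.

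From each list the gene with the highest mean normalized count was also named, a choice that does not correct for transcript length and ranks no expression between genes. The 6 given here did not have an unadjusted p under 0.05. For CRAT, carnitine acetyltransferase, the log2 fold change was 0.09 ± 0.21 SE (edgeR, unadjusted p = 0.662). For ECHS1, the short-chain enoyl-CoA hydratase, it was 0.12 ± 0.18 SE (edgeR, unadjusted p = 0.515), and for MUT, methylmalonyl-CoA mutase, it was 0.01 ± 0.21 SE (edgeR, unadjusted p = 0.945). ACACB, the acetyl-CoA carboxylase that makes malonyl-CoA at the mitochondrial surface, had 0.14 ± 0.37 SE (edgeR, unadjusted p = 0.720), and RXRA, the partner of PPARA on DNA, had 0.09 ± 0.16 SE (edgeR, unadjusted p = 0.570). Electrons from the acyl-CoA dehydrogenases pass to the electron transfer flavoprotein and its dehydrogenase. ETFA had a log2 fold change of 0.13 ± 0.17 SE (edgeR, unadjusted p = 0.448). The other genes of that list, named after their values were seen, were ETFB with 0.41 ± 0.19 SE (edgeR, unadjusted p = 0.0523) and ETFDH with 0.37 ± 0.21 SE (edgeR, unadjusted p = 0.0939). CREB3L3, a hepatic transcription factor also named after its values were seen, had 0.79 ± 0.38 SE (edgeR, unadjusted p = 0.0545).

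Low counts kept 8 listed genes out of the test. PPARA, the nuclear receptor that controls many of these enzymes, had 2 to 12 counts per HFr animal and 2 to 19 per chow animal, and SIRT3, a mitochondrial deacetylase, had 2 to 18 and 1 to 13. LPIN1 had 2 to 19 and 2 to 14 counts, SLC22A5 2 to 21 and 0 to 19, ACAD9 3 to 12 and 3 to 7, MLYCD 4 to 12 and 2 to 10, and PPARGC1B 0 to 4 and 1 to 4. CPT1C, the brain form of CPT1, had 0 counts in every HFr animal and at most 1 per chow animal. The main test therefore did not assess a difference between the diets in these genes, and at such counts a difference could be missed. When every transcript with a count in any animal was tested, none of the 8 had an unadjusted p under 0.05 in edgeR, beside 4.71% of all transcripts. No transcript was found under the symbol OXCT1.

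**Figure D4:**
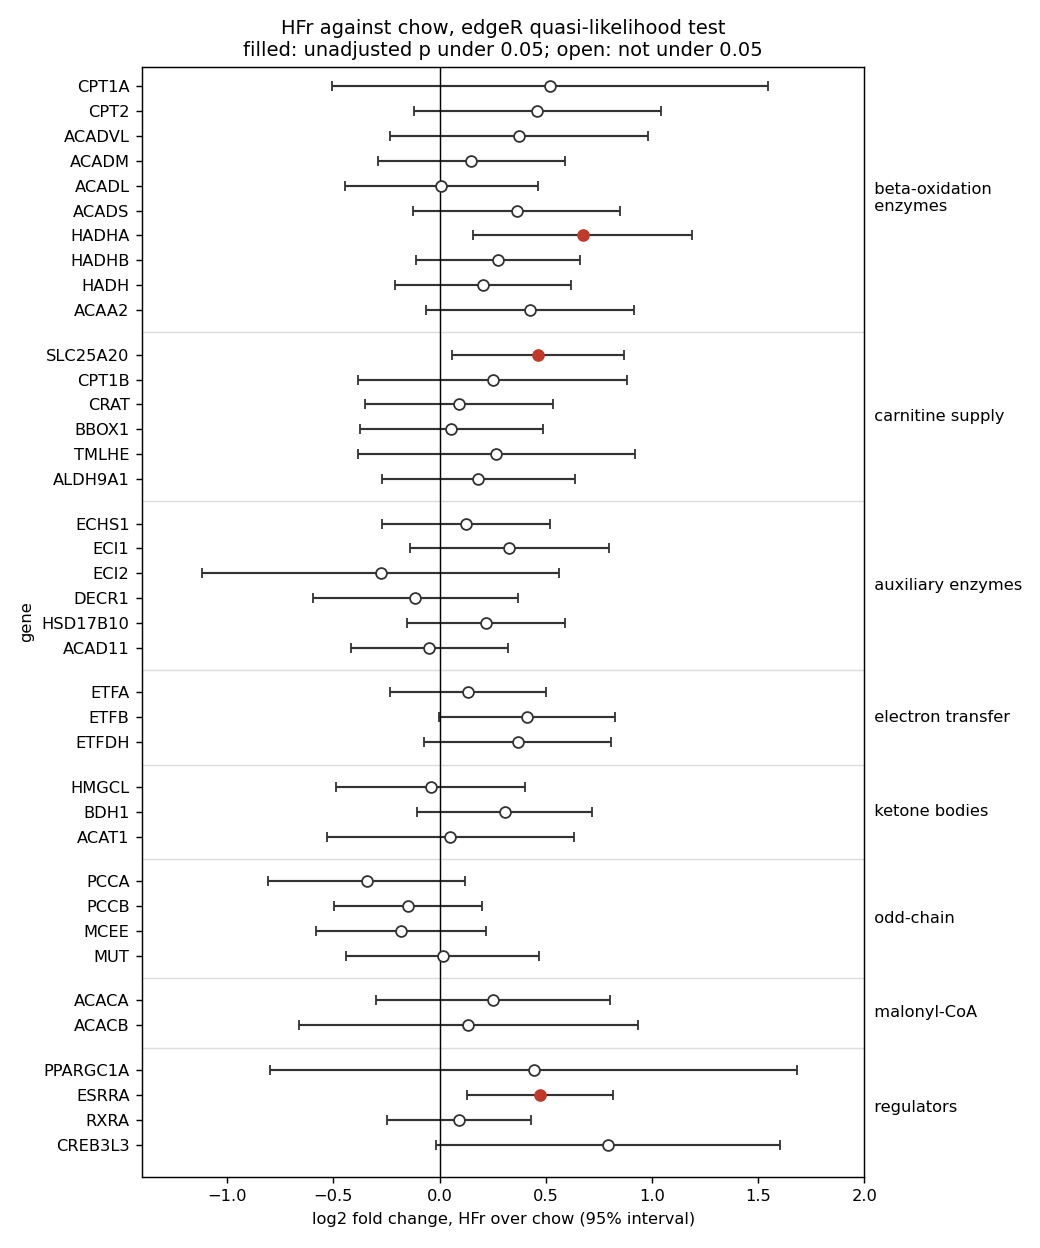
Log2 fold change of HFr over chow with its 95% interval (horizontal axis) for the 10 beta-oxidation enzymes and all but 1 of the 29 tested genes of the pathway lists (vertical axis, grouped at the right), from edgeR's quasi-likelihood test on 5 animals per diet. Filled points have an unadjusted p under 0.05, which are HADHA (0.67), SLC25A20 (0.46) and ESRRA (0.47), and the intervals of all other genes shown include 0.

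Among the 7161 tested transcripts with a gene symbol outside the 10 enzymes, those whose level followed the mean of the enzymes most closely over the 10 animals were ACSL5 (r = 0.94), CCM2 (0.94), ABCD3 (0.94), KIF7 (0.90) and PPP2R1B (0.88). These are the top of a ranking of all 7161, and their r carries no test. The mean deviation of the enzymes itself averaged 0.17 on HFr and -0.17 on chow. Genes picked for following it therefore tend to be higher on HFr. Their fold changes and p-values below are descriptions and add no separate evidence of a diet difference. ACSL5, a long-chain acyl-CoA synthetase, had 69.2 ± 18.5 normalized counts on HFr and 44.7 ± 22.0 on chow (SD, n = 5 each; log2 fold change 0.64 ± 0.33 SE; edgeR, unadjusted p = 0.0742). ABCD3, a peroxisomal fatty acid transporter, had 94.2 ± 22.0 and 57.0 ± 14.4 (SD, n = 5 each; log2 fold change 0.72 ± 0.22 SE; edgeR, unadjusted p = 0.00479, adjusted p = 0.9996). CCM2, KIF7 and PPP2R1B had log2 fold changes of 0.40, 0.66 and 0.57 (edgeR, unadjusted p of 0.0545, 0.0765 and 0.117).

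Markers of other cells in a liver biopsy were set beside these results. The summed levels of the diets overlapped for macrophage markers (318 to 482 normalized counts on HFr, 305 to 475 on chow), lymphocyte markers (30.7 to 53.3 and 29.2 to 44.6), endothelial markers (160 to 191 and 120 to 184), cholangiocyte markers (6.0 to 26.7 and 10.1 to 31.8) and erythroid markers (101 to 334 and 61.1 to 345). They also overlapped for adipocyte markers (136 to 247 and 85.6 to 275). There ADIPOQ and LEP were at 0 in every animal, so the sum came from the lipid droplet genes PLIN1 and PLIN4 alone. The skeletal muscle sums overlapped as well (0.377 to 2.02 and 0.438 to 2.74), with CKM, MB and MYH7 at 0. The macrophage sum was mostly CD14, with a mean of 277 on each diet. MARCO varied more, from 8.1 to 57.7 on HFr and from 9.9 to 48.0 on chow. All 6 tested macrophage markers had a log2 fold change above 0, beside 49.8% of all tested transcripts, with CD14 at 0.0024. The 6 were measured in the same animals and were not taken as independent directions. Of them, 0 had an unadjusted p under 0.05 in edgeR, beside 4.29% of all tested transcripts. Of the stellate cell and fibroblast markers (206 to 397 on HFr and 172 to 798 on chow), 6 of 7 could be tested. The log2 fold change was below 0 for 5 of the 6 and 0.20 for COL1A1. The unadjusted threshold of 0.05 was passed by 2 of the 6, beside 4.29% of all tested transcripts, and by none after adjustment (adjusted p = 0.9996 for both from edgeR). They were the contractile genes ACTA2, with a log2 fold change of -1.57 (edgeR, unadjusted p = 0.00646), and TAGLN, with -0.69 (edgeR, unadjusted p = 0.0122). The part of such differences in the levels of the 10 enzymes was not tested.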

How the data were processed

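Liver RNA of 10 female vervet monkeys was sequenced as polyadenylated, stranded TruSeq libraries with 2 × 100 base reads. The authors kept reads with a Phred score of at least 30, and assigned them to Ensembl release 93 transcripts of ChlSab1.1 by expectation-maximization in Partek Flow. The submitters' processing notes also name CASAVA 1.8, FastQC and STAR 2.5.3a. The authors deposited these estimated counts, of which 95.0% of the nonzero values were whole. They also deposited a signal table, made by the authors by dropping transcripts without reads and scaling with TMM. It was used here only as a check and for the limma alternatives.

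After rounding, transcripts passing filterByExpr (at least 10 counts, total at least 15) were normalized with TMM (factors 0.607 to 1.49). HFr was tested against chow with the quasi-likelihood method of edgeR and no further covariate. The methods of the study name a two-sided equal-variance test instead, which was not used because the table holds counts. Benjamini-Hochberg adjustment covered all 7948 tested transcripts, with a threshold of 0.05. The standard error is the size of the log2 fold change divided by the square root of F. Exact permutation tests used all 252 assignments of 5 of 10 animals. Coordinates are the bounds in the deposited table, counted from 1. Versions were edgeR 4.0.16, DESeq2 1.42.0 and limma 3.58.1 under R 4.3.3, and the fit was tested on simulated data.

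The enzymes and gene lists were chosen with earlier results of these data known. Named are all 10 enzymes, each list gene with an unadjusted p under 0.05 or no overlap between the diets, the gene with the highest mean level in each list, and the 5 transcripts most correlated with the mean of the enzymes. For 1 listed gene no values are reported here, and list totals include it. Labels gave each animal its diet. Alternatives were other normalizations, filters, tests and pseudocounts, a replicate block, the mitochondrial percent as a covariate, and each animal left out.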

Additional observations from a re-analysis of the deposited data

Results flagged for a closer look

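In 4 of 38 groups of 5 animals, 1 animal lay farther from the others than Dixon's criterion allows at the 95% level, where chance sets off about 1 in 20 groups. ACADL had 25.1 normalized counts in chow animal 3, against 13.0 to 16.2 in the other chow animals. CRAT had 174 in HFr animal 4, where the other HFr animals had 97.5 to 119. ECHS1 had 385 in the same animal, against 275 to 300. ACACB had 31.5 in HFr animal 5, against 12.9 to 18.0 in the other HFr animals.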

How the results depend on the processing

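The 10 enzymes kept a median log2 fold change between 0.26 and 0.49 over all 25 alternatives. With library size only, 123 transcripts had an unadjusted p under 0.05, 1 passed after adjustment, and 0 enzymes and 0 pathway genes had an unadjusted p under 0.05. Testing every transcript with a count in any animal gave 756 instead of 341. DESeq2 called 2 transcripts after adjustment. DESeq2, limma with a pseudocount of 1 or 0.1, and the mitochondrial percent as a covariate each gave 5 pathway genes instead of 3. Leaving out 1 animal at a time gave 0 to 2 enzymes and 2 to 5 pathway genes; HADHA was lost only without HFr animal 2, and ACADS, ACAA2, ACADVL or CPT2 was gained in 4 fits. HADHA had an unadjusted p under 0.05 in 23 of 25 alternatives (log2 fold change 0.45 to 0.81, adjusted p 0.838 to 1), ESRRA in 24 and SLC25A20 in 19. The sign turned for ACADL with library size only (-0.012). With single animals left out, log2 fold changes turned or spanned 0 for ACADM (-0.00026 to 0.23), ACADL (-0.076 to 0.22), CRAT (-0.082 to 0.17), MUT (-0.12 to 0.10) and ACACB (-0.14 to 0.52). The cause was not tested. Animals with the same replicate number did not deviate together (r from -0.29 to 0.10), so the numbers were not taken as pairs. With a replicate block, 3.41% of transcripts had an unadjusted p under 0.05, the median of the enzymes was 0.33, and HADHA (0.62, unadjusted p = 0.0430) stayed the only enzyme under 0.05. A biological coefficient of variation of 29.0% limits what 5 animals per diet can show.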
